A study of Mus musculus with 9 samples.

Results

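The genes described here encode the main whey proteins of mouse milk, Wap, Lalba, Ltf and Glycam1, and the main proteins of the milk fat globule and its membrane, Btn1a1, Xdh, Mfge8, Plin2 and Muc1. They were chosen by name, and 9 of 9 were found among the 20422 genes of the array, with 111 of the 212138 probe sets that carry exactly 1 gene symbol. A gene has between 4 (Lalba, Glycam1) and 38 (Xdh) of these probe sets, and its value is the mean of their log2 values. On GRCm38.p6 all 9 are protein-coding and lie on different chromosomes, except Lalba (chr15:98480400-98482934) and Glycam1 (chr15:103562759-103565081), which share one. The study asked whether induced pluripotent stem cells (iPSCs, cells returned to an embryo-like state) give rise to mammary cells more readily when they come from mammary epithelium than when they come from fibroblasts. RNA of 3 groups was hybridised to 3 arrays each. ME are mammary epithelial cells taken fresh from mice. D-ME-iPSCs are iPSCs of mammary epithelial cells, and D-TF-iPSCs are iPSCs of tail-tip fibroblasts, both after the same mammary differentiation in culture. Per the study's methods, both kinds of iPSCs were made with retroviral Oct4, Sox2, Klf4 and c-Myc and a lentiviral EOS-EGFP reporter, picked as clones and grown on fibroblast feeder cells, from mammary cells of virgin females of more than one age and tail-tip fibroblasts of adult mice. Per the study, donor cells that it transplanted expressed a beta-galactosidase gene, but D-ME-iPSCs without it were used where both kinds were mixed. The strain, the clones behind each array, and the age and reproductive state of the mice behind the ME arrays are not stated in the labels or methods. The arrays were submitted as biological replicates, but nothing says that they came from separate animals or cultures, so the p-values measure the spread between these arrays. In such bulk samples, fewer cells of a type and less RNA per cell cannot be told apart.

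Milk is made by the secretory alveolar cells of the mammary gland, in which prolactin acts through the transcription factor STAT5 to raise milk protein genes during pregnancy and lactation. Whey proteins leave the cell with the caseins by exocytosis, whereas fat leaves as lipid droplets: perilipin 2 (Plin2) coats the droplet in the cell, and butyrophilin (Btn1a1) together with xanthine dehydrogenase (Xdh) is needed for the droplet to be wrapped in apical membrane on its way out. Of these genes, Wap and Lalba are known chiefly from the secreting gland. Glycam1 is also made outside it, and Ltf, Muc1, Mfge8, Plin2 and Xdh are also expressed in many other epithelia or cell types.

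One ME array stood apart, and values without it stand beside those with all arrays for the counts and for the genes on which it bore most. Over the gene means of all genes, ME replicate 1 correlated with the D-ME-iPSC arrays at r = 0.991 to 0.993. With ME replicates 2 and 3 it correlated at only 0.92 to 0.943, while these 2 correlated with each other at 0.973. ME replicate 1 was kept in its labelled group. Its values for the whey and milk fat globule genes lay 0.063 to 0.242 log2 units from the D-ME-iPSC mean. The labelled cell types were checked against markers: all 12 mammary epithelial markers passed the test as higher in both ME and D-ME-iPSCs against D-TF-iPSCs, with and without ME replicate 1, and 8 and 6 of 10 fibroblast markers passed it as lower. With all arrays, 7.5% and 6.83% of all genes passed it as higher and 8.78% and 6.45% as lower.

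The DNA just before the start of a gene is where such regulators often act, so promoter sequences are shown for the gene with the largest difference from D-TF-iPSCs in ME (Glycam1), the whey gene that was high in a lone array (Wap), the gene with the largest difference in D-ME-iPSCs (Ltf), and a gene whose difference was alike in ME and D-ME-iPSCs (Muc1). RefSeq promoter windows on GRCm38.p6 were matched for 7 of the 9 genes, by symbol; Btn1a1 and Xdh were not matched. The 250 bases before the start were searched on both strands for 4 motifs. These were the STAT site TTCNNNGAA, the NF1 half-site TTGGCA, the core promoter box TATAAA, and the half-site of the glucocorticoid receptor TGTTCT. Capitals mark a match.
Glycam1, chr15:103565082-103565331, minus strand: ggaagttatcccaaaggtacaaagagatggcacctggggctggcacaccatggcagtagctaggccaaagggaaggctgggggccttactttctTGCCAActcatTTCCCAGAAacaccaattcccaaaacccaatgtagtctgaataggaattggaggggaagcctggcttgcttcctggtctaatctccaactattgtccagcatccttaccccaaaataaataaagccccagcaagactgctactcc
Wap, chr11:6638650-6638899, minus strand: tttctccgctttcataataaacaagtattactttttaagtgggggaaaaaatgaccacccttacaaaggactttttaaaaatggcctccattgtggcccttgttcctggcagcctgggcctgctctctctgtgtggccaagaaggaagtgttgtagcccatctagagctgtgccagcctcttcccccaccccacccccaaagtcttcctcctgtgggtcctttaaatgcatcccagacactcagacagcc
Ltf, chr9:111019042-111019291, plus strand: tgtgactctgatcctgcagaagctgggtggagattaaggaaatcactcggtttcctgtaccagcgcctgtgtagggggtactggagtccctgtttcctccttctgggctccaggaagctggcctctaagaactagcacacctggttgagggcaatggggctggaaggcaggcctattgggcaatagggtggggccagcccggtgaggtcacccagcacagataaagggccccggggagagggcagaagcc
Muc1, chr3:89228806-89229055, plus strand: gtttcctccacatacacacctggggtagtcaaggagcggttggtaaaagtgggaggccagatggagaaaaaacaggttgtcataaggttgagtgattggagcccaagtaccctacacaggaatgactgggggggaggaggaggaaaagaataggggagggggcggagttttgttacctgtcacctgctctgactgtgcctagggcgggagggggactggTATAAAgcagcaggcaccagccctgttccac
The Glycam1 window held TTCNNNGAA from 145 to 137 bases before the start and TTGGCA, read on the other strand, from 156 to 151 bases before it. The Muc1 window held TATAAA 31 to 26 bases before the start. Lalba held TTGGCA from 120 to 115 bases before the start used for its window. The windows of Wap, Ltf, Mfge8 and Plin2 held no match to these letters. The Lalba window, chr15:98482684-98482933 on the minus strand, lies inside the gene span given above. Those of Wap and Plin2 overlap their gene spans in part. Of all 32851 windows of the same length, 7.02% held TTCNNNGAA, 12.3% TTGGCA, 12.4% TATAAA and 16.1% TGTTCT. The 4 whey gene windows had 49.6% to 59.2% G and C and 0 to 4 CG pairs, against a median of 52.4% and 6 over all windows; Mfge8 had 65.2% and 12 pairs. A match is a description of the letters, and the motifs were chosen after values of these genes were known.

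In ME, 5 of the 9 genes were higher than in D-TF-iPSCs (Ltf, Glycam1, Btn1a1, Plin2, Muc1) and 0 were lower, where 16.3% of all genes tested were called (7.5% higher, 8.78% lower). In D-ME-iPSCs, 4 of 9 were higher (Ltf, Btn1a1, Plin2, Muc1) and 0 lower, where 13.3% of all genes were called (6.83% higher, 6.45% lower). The median log2 difference of the 9 genes from D-TF-iPSCs was 1.09 in ME and 0.67 in D-ME-iPSCs, beside 0.01 and -0.0059 over all genes. A call here means a limma p, adjusted over all genes by Benjamini-Hochberg, of under 0.05 in a fit to all 9 arrays. Without ME replicate 1, the counts were 7 higher in ME, where 39.1% of all genes were called (16.4% higher, 22.8% lower), and 5 higher and 1 lower in D-ME-iPSCs, where 28.3% were (15.5% higher, 12.8% lower). For Ltf, Glycam1, Btn1a1, Plin2 and Muc1 the arrays of ME, and those of D-ME-iPSCs, all lay above the D-TF-iPSC arrays, as did 14.4% and 25.2% of all genes. Both comparisons use the same D-TF-iPSC arrays, and the fit shares 1 spread per gene over all groups. The spread of the ME arrays thus also enters the test of D-ME-iPSCs against D-TF-iPSCs. Leaving out ME replicate 1 therefore changes the calls of that comparison too.

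**Figure D1:**
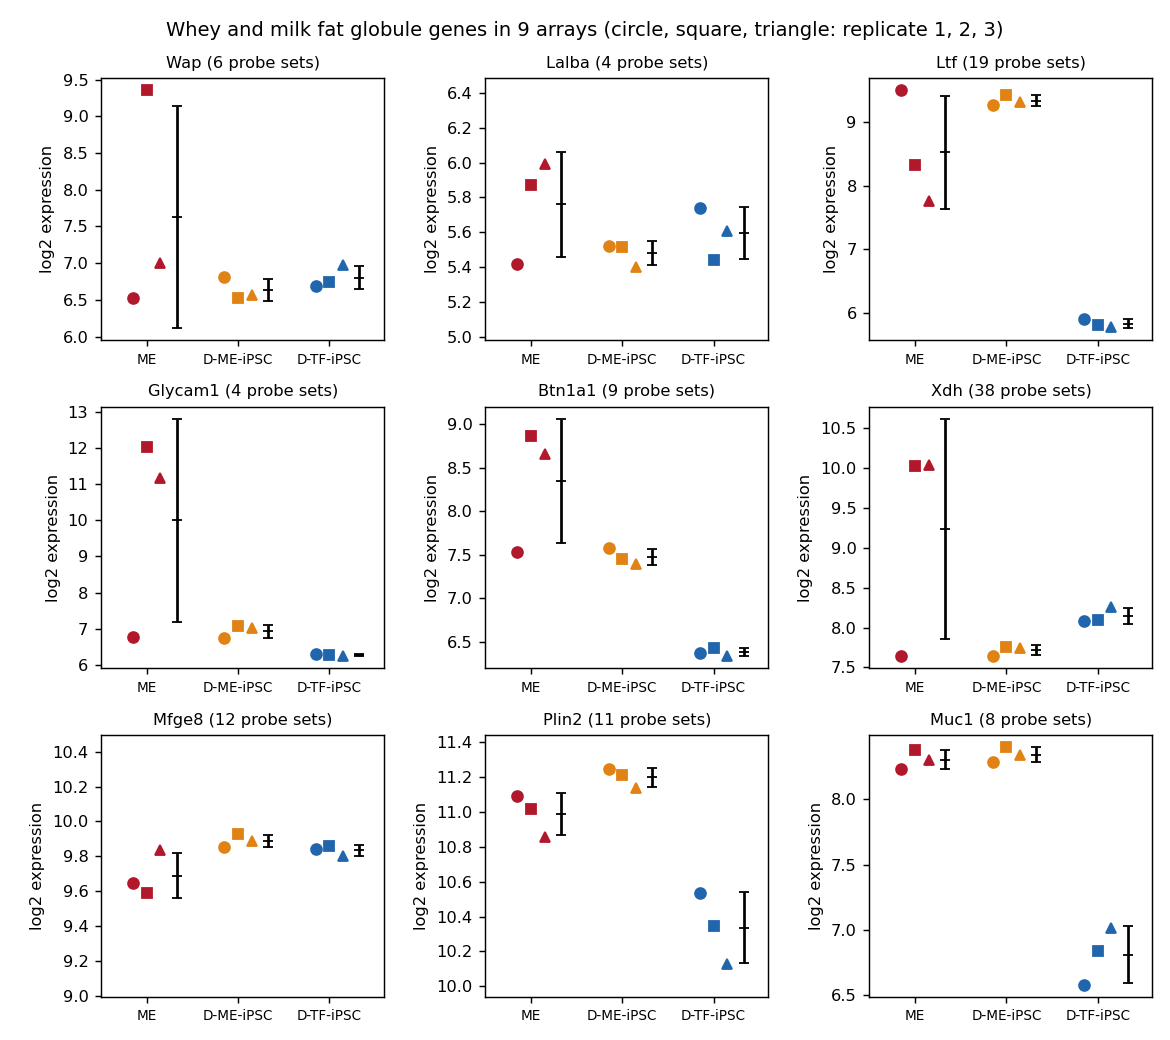
Log2 expression of each gene (y axis, mean of its probe sets; scale differs by panel) in the 3 arrays of ME (red), D-ME-iPSCs (orange) and D-TF-iPSCs (blue), with the mean and SD in black and circle, square and triangle for replicates 1, 2 and 3. Glycam1, Btn1a1 and Xdh were high in ME replicates 2 and 3, whereas ME replicate 1 lay with the D-ME-iPSC arrays; Ltf, Glycam1, Btn1a1, Plin2 and Muc1 were higher in every ME and D-ME-iPSC array than in any D-TF-iPSC array.

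Among the whey genes, Ltf passed the test in both ME and D-ME-iPSCs, Glycam1 in ME, and Wap and Lalba in neither. Ltf, which encodes the iron-binding antimicrobial protein lactoferrin, read 9.50, 8.33 and 7.75 in ME replicates 1 to 3, 9.26, 9.43 and 9.31 in D-ME-iPSCs, and 5.90, 5.81 and 5.77 in D-TF-iPSCs. The 6 arrays of mammary origin all lay above the D-TF-iPSC arrays, with no overlap. The difference from D-TF-iPSCs was log2 2.70 (SE 0.35, adjusted p = 0.0010), a 6.48-fold higher level, in ME and log2 3.51 (SE 0.35, adjusted p = 0.00026), an 11.4-fold higher level, in D-ME-iPSCs. The ME difference was log2 2.21 when ME replicate 1 was left out. Ltf was lower in ME replicates 2 and 3 than in D-ME-iPSCs, in contrast to the other whey genes.

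Glycam1 encodes a mucin-like glycoprotein secreted into whey, and it read 6.78, 12.02 and 11.18 in ME, 6.73, 7.07 and 7.01 in D-ME-iPSCs, and 6.30, 6.27 and 6.23 in D-TF-iPSCs. ME replicates 2 and 3 were the high arrays, and ME replicate 1 was in the range of D-ME-iPSCs. The ME difference from D-TF-iPSCs was log2 3.73 (SE 1.08, adjusted p = 0.046), and this call was lost in 13 of 20 alternative settings; over the 20, the difference ranged from 1.46 to 5.33. Without ME replicate 1 it was log2 5.33 (SE 0.21), a 40.3-fold higher level. The 3 D-ME-iPSC arrays also lay above the 3 D-TF-iPSC arrays, by log2 0.67. This did not pass the test with all arrays (adjusted p = 0.82) and did without ME replicate 1. Its SE with all arrays, 1.08, came from the spread shared with ME. The SDs within D-ME-iPSCs and D-TF-iPSCs were 0.18 and 0.035. Glycam1 is also made by the high endothelial venules of lymph nodes. Of the genes that mark those vessels or endothelium in general, Madcam1 read 6.91 and 6.38 in ME replicates 2 and 3 against 6.30 to 6.38 in D-TF-iPSCs. Chst4 read 5.82 and 5.91 against 5.68 to 5.94, and Pecam1 read 6.82 and 6.89 against 8.41 to 8.54. Tek went the other way in ME replicate 3, at 7.02 and 7.935 against 7.00 to 7.18. The part of such cells in the Glycam1 values was not tested.

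Wap, the whey acidic protein gene, is known as a marker of the lactating gland. It read 6.53, 9.36 and 7.01 in ME, 6.81, 6.52 and 6.57 in D-ME-iPSCs and 6.68, 6.74 and 6.98 in D-TF-iPSCs. Only ME replicate 2 was high; it lay 2.55 log2 units above the D-TF-iPSC mean, and ME replicate 3 lay 0.21 above it. The ME difference was log2 0.83 (SE 0.59, adjusted p = 0.41) with all arrays and -0.033 without ME replicate 2. Across the lists of milk, lipid droplet and marker genes, 6 of 149 genes read at least 2 log2 units higher in ME replicate 2 than in ME replicate 3: Wap, the acute-phase proteins Saa2 and Saa1, the milk lipase gene Cel, the fatty acid carrier Fabp3 and the immunoglobulin receptor Pigr. This list was chosen after the Wap values were seen. Fabp3, for example, read 11.55 in ME replicate 2, 9.22 in ME replicate 3 and 5.97 in ME replicate 1.

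Lalba, the alpha-lactalbumin gene, whose product makes the galactosyltransferase a lactose synthase, was dim in every array. It read 5.42, 5.87 and 5.99 in ME, 5.52, 5.52 and 5.40 in D-ME-iPSCs, and 5.74, 5.44 and 5.61 in D-TF-iPSCs, so that the 3 groups overlapped. The ME difference from D-TF-iPSCs was log2 0.16 (95% interval -0.19 to 0.51), and 0.33 without ME replicate 1, where it passed the test. The gene mean of Lalba and that of Wap were below the median gene of the array, so they did not pass a filter on dim genes that the other 7 members passed.

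Among the globule genes, Btn1a1, Plin2 and Muc1 were higher in both groups of mammary origin than in D-TF-iPSCs, while Xdh and Mfge8 were not called. Btn1a1 encodes butyrophilin, the most abundant protein of the globule membrane in cow's milk, and read 7.54, 8.86 and 8.65 in ME, 7.57, 7.45 and 7.40 in D-ME-iPSCs, and 6.37, 6.43 and 6.34 in D-TF-iPSCs. The D-TF-iPSC arrays were the low ones with no overlap, ME replicates 2 and 3 were the high ones, and ME replicate 1 lay beside D-ME-iPSCs. The difference from D-TF-iPSCs was log2 1.97 (SE 0.29, adjusted p = 0.0018) in ME and log2 1.09 (SE 0.29, adjusted p = 0.035) in D-ME-iPSCs. The D-ME-iPSC call was lost in 8 of 20 settings, and over the 20 the value lay between 0.72 and 2.82. Leaving out ME replicate 1 gave a difference of log2 2.38 in ME.

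Xdh, which encodes xanthine dehydrogenase, an enzyme of purine breakdown that also binds butyrophilin, read 7.64, 10.02 and 10.04 in ME, 7.64, 7.76 and 7.75 in D-ME-iPSCs, and 8.09, 8.10 and 8.26 in D-TF-iPSCs. ME replicates 2 and 3 were highest, and ME replicate 1 and the D-ME-iPSC arrays were below D-TF-iPSCs. With all arrays the ME difference was log2 1.09 (SE 0.54, adjusted p = 0.22) and the D-ME-iPSC difference was -0.43 (adjusted p = 0.75), so that neither was called. The SDs within D-ME-iPSCs and D-TF-iPSCs were 0.063 and 0.096, but the test used the spread shared with ME. Without ME replicate 1, Xdh was called in both, at log2 1.88 in ME and log2 -0.43 in D-ME-iPSCs.

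Plin2 and Muc1 were higher in both groups of mammary origin. Plin2, the coat protein of cytoplasmic lipid droplets, read 11.09, 11.02 and 10.86 in ME, 11.25, 11.21 and 11.14 in D-ME-iPSCs, and 10.53, 10.35 and 10.13 in D-TF-iPSCs. The difference from D-TF-iPSCs was log2 0.65 (adjusted p = 0.0069) in ME and log2 0.86 (adjusted p = 0.0019) in D-ME-iPSCs. Muc1, a transmembrane mucin of apical membranes and so of the globule, read 8.23, 8.38 and 8.30 in ME, 8.28, 8.40 and 8.34 in D-ME-iPSCs, and 6.58, 6.84 and 7.01 in D-TF-iPSCs. The difference was log2 1.49 (adjusted p = 7.8e-05) in ME and log2 1.53 (adjusted p = 7.4e-05) in D-ME-iPSCs, a 2.82-fold and 2.89-fold higher level. Both stayed called in ME without ME replicate 1, at log2 0.60 for Plin2 and 1.53 for Muc1. The Plin2 call was lost in 3 of 20 settings in ME and in 1 in D-ME-iPSCs, with values down to log2 0.36 and 0.41, and with the brightest probe set Muc1 was not called, at log2 -0.31 and -0.15. For both genes the D-TF-iPSC arrays were the low ones and the ME and D-ME-iPSC values did not overlap with them. Ltf and Muc1 are among the genes the study picked from these arrays, so their direction is not independent of its choice.

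Mfge8, which encodes a phosphatidylserine-binding globule protein that macrophages also make, read 9.65, 9.59 and 9.83 in ME, 9.85, 9.93 and 9.89 in D-ME-iPSCs and 9.84, 9.86 and 9.80 in D-TF-iPSCs. All 9 values lay between 9.59 and 9.93, and no comparison of the gene passed the test. The intervals of the differences were narrow: log2 -0.36 to 0.07 for ME and -0.17 to 0.27 for D-ME-iPSCs against D-TF-iPSCs.

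**Figure D2:**
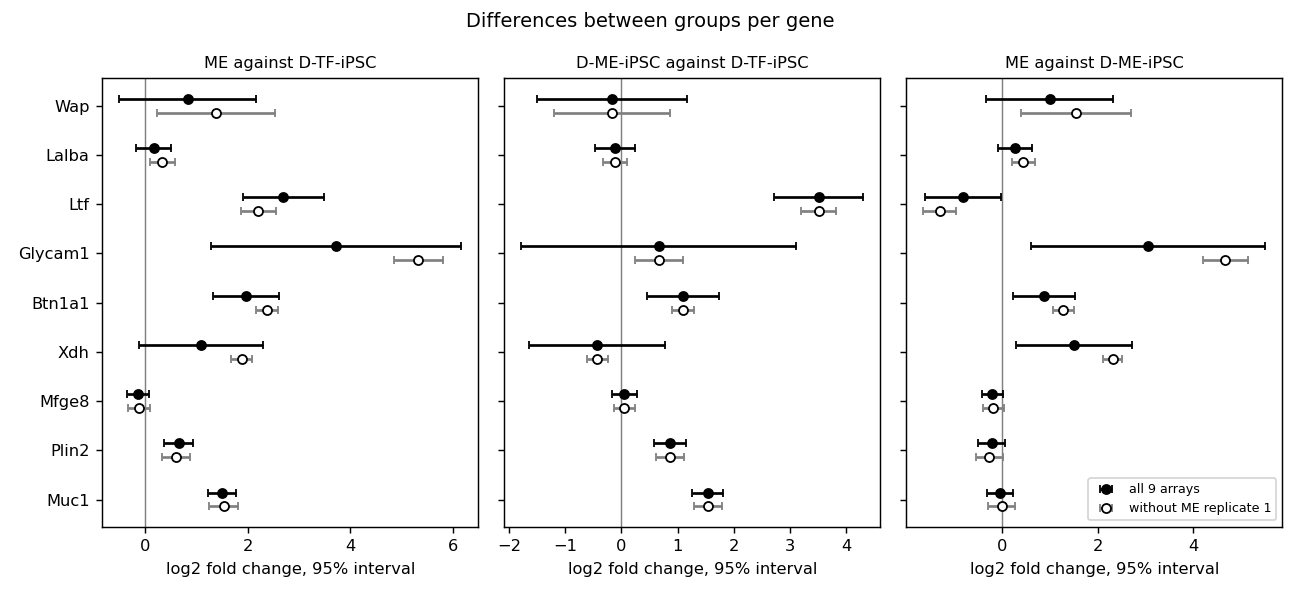
Log2 fold change of each gene (x axis) with its 95% interval in the 3 comparisons, from the limma fit with all 9 arrays (filled) and without ME replicate 1 (open). Intervals of Glycam1, Xdh and Wap are wide with all arrays, and those of Glycam1 and Xdh narrow when ME replicate 1 is left out.

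Set directly against each other, ME and D-ME-iPSCs differed in 0 of the 9 genes, as in 0 of all 20422 genes tested by limma (0% of all genes; 18.9% had an unadjusted p under 0.05, as had 4 of the 9 members: Ltf, Glycam1, Btn1a1 and Xdh). The methods' t-test called 1074 of all genes unadjusted and 0 after Benjamini-Hochberg. Without ME replicate 1, 5 genes were higher in ME and 1 lower, where 38.7% of all genes were called (15.1% higher, 23.6% lower). Glycam1 was then higher by log2 4.67 (SE 0.21), a 25.4-fold higher level, Xdh by log2 2.31 (SE 0.09), Wap by log2 1.55 (SE 0.51), Btn1a1 by log2 1.28 (SE 0.10) and Lalba by log2 0.45 (SE 0.11). Ltf was lower, at log2 -1.30 (SE 0.15). Plin2, Muc1 and Mfge8 were not called, and their intervals were -0.54 to 0.02, -0.28 to 0.28 and -0.39 to 0.04. Per array, ME replicates 2 and 3 exceeded the D-ME-iPSC mean of Glycam1 34.0-fold and 19.0-fold, and the mean of Xdh 4.93-fold and 5.00-fold, whereas ME replicate 1 was at 0.90 and 0.95 of it.

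The 9 genes were then read probe set by probe set, each covering a stretch of an exon, whose positions in the transcript are not given in the files. Of the 111 probe sets, 31 were higher and 1 was lower in ME than in D-TF-iPSCs, where 7.38% of all probe sets were called (3.55% higher, 3.82% lower), and 29 were higher and 2 lower in D-ME-iPSCs, where 5.32% were (2.84% higher, 2.48% lower). Without ME replicate 1, the counts were 69 and 1 in ME and 38 and 7 in D-ME-iPSCs, where 20.5% of all probe sets (7.37% higher, 13.1% lower) and 11.2% of them (6.32% higher, 4.84% lower) were called. The mean of each of the 19 Ltf probe sets in ME, and in D-ME-iPSCs, exceeded its D-TF-iPSC mean, and 14 and 17 of them were called. The probe set with the largest difference, 10589717, read 11.53, 10.51 and 9.94 in ME, 11.41, 11.50 and 11.50 in D-ME-iPSCs and 4.05, 4.11 and 4.42 in D-TF-iPSCs, so that its difference exceeded that of the gene mean. It differed by log2 6.47 in ME and by log2 7.27, a 155-fold higher level, in D-ME-iPSCs, against log2 0.86 and 1.24 for the least different Ltf probe set, 10589715. The ME values of these probe sets were log2 6.03 and 0.56 without ME replicate 1.

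Probe sets of the globule genes also differed within a gene. In Btn1a1 the ME difference was log2 3.81 and 3.87 for the first probe sets by ID, 10408176 and 10408177, and log2 -0.32 and 0.82 for the last, 10408183 and 10408184; without ME replicate 1 these values were 4.38, 4.29, 0.0060 and 0.96. In D-ME-iPSCs it ran from log2 2.82 for 10408176 to -0.13 for 10408182. Tested against the other probe sets of their gene, 4 of the 9 differed in ME, and 10408183 was lowest, at log2 -2.58 (limma diffSplice, false discovery rate 0.00024), a fit added after the probe set values were seen, in which 2.21% of all probe sets differed in ME. In Mfge8, 2 probe sets differed from the rest of the gene in ME by that fit, 10564720, which was lower, at log2 -0.72 (false discovery rate 0.025), and 10564721. The latter read 10.89, 11.65 and 11.88 in ME, 11.30, 11.47 and 11.33 in D-ME-iPSCs and 10.42, 10.42 and 10.52 in D-TF-iPSCs, with no overlap. The difference was log2 1.03 in ME (adjusted p = 0.045) and 0.91 in D-ME-iPSCs, which was not called with all arrays (adjusted p = 0.083). Both were called without ME replicate 1, where the ME difference was log2 1.32. Against its gene's other probe sets it was higher by log2 1.28 in ME (false discovery rate 4.2e-06) and 0.94 in D-ME-iPSCs (0.0016), where 1.31% of all probe sets differed in D-ME-iPSCs.

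Muc1 and Xdh held probe sets that the gene means hide. Muc1 10493475 read between 9.82 and 10.99 in all 9 arrays, with log2 differences of -0.31 in ME (0.02 without ME replicate 1) and -0.15 in D-ME-iPSCs that did not pass the test, while 10493478 was higher by log2 3.09 in ME and 10493479 by log2 3.30 in D-ME-iPSCs. In Plin2 the largest difference was at 10514231, at log2 1.45 in ME and 1.61 in D-ME-iPSCs, and the smallest at 10514232 in ME (0.02) and at 10514222 in D-ME-iPSCs (-0.55). In Xdh, 36 of 38 probe sets had a higher mean in ME than in D-TF-iPSCs and 30 of 38 a lower mean in D-ME-iPSCs, although with all arrays 1 and 0 of them were called higher and 1 and 2 lower; without ME replicate 1 they were 32 and 0 higher and 1 and 7 lower. The largest Xdh difference was at 10452832 (log2 2.48 in ME, 1.11 in D-ME-iPSCs) and the lowest in D-ME-iPSCs at 10452844 (log2 -2.15), none of which was called with all arrays. Xdh 10452836 was the 1 lower in ME, at log2 -1.62, and was also lower in D-ME-iPSCs, at log2 -1.61. It read 6.91, 7.38 and 8.34 in ME, 7.56, 7.02 and 8.05 in D-ME-iPSCs and 9.13, 8.96 and 9.38 in D-TF-iPSCs, so that the D-TF-iPSC arrays were the high ones there. Of the 4 Glycam1 probe sets, none was called with all arrays, where the ME difference ran from log2 1.46 (10433176) to 5.62 (10433175), and 4 were higher in ME without ME replicate 1, 10433175 by log2 7.98. The ME difference ran from log2 -0.47 (10384213) to 1.48 (10384218) in Wap and from log2 0.08 (10432161) to 0.38 (10432159) in Lalba, and no probe set of either was called with all arrays.

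**Figure D3:**
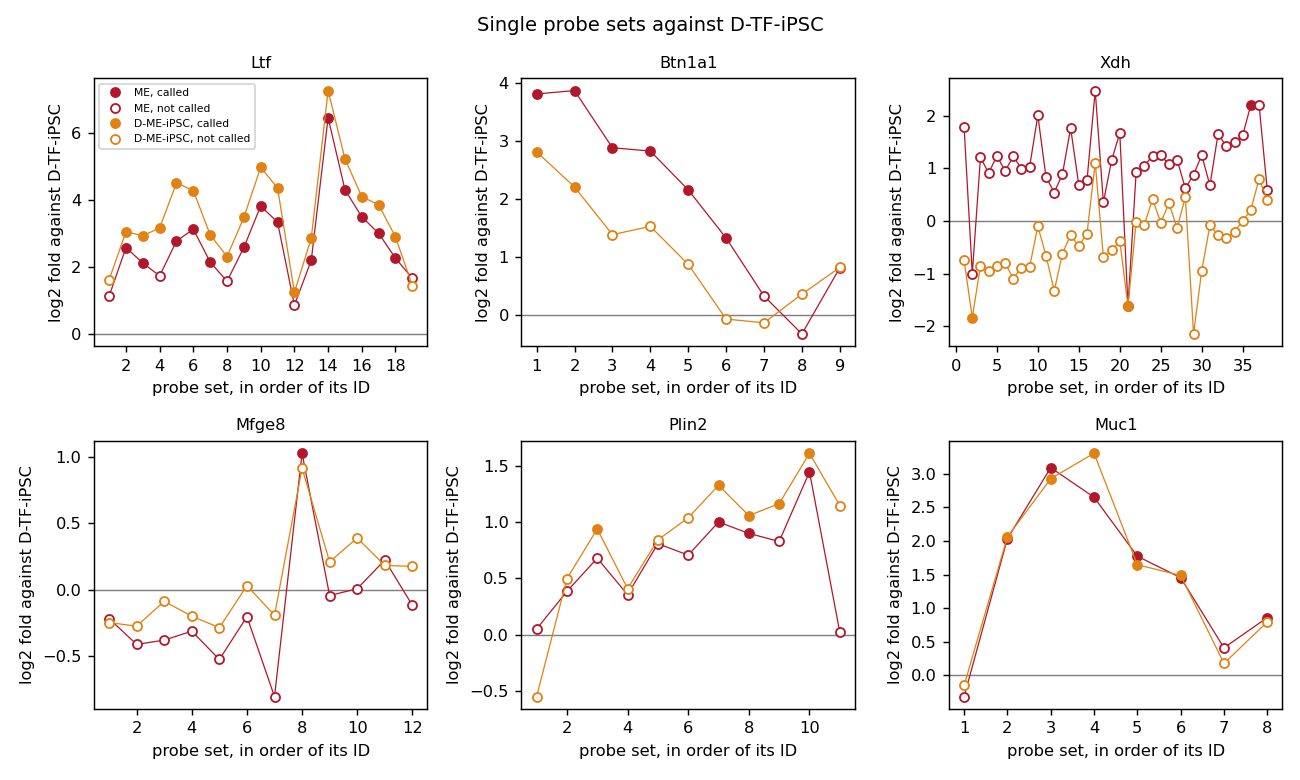
Log2 fold change of each probe set against D-TF-iPSCs (y axis, scale differs by panel) in order of its ID (x axis) for ME (red) and D-ME-iPSCs (orange), in the 6 genes with 8 or more probe sets; filled points passed the test. The largest Ltf probe set reached log2 6.47 and 7.27, and 1 Mfge8 probe set lay 1.03 and 0.91 above 0.

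The 9 genes resembled each other in groups. Over the 9 arrays, Glycam1 correlated with Xdh at r = 0.934 and with Btn1a1 at 0.893, and Ltf with Plin2 at 0.96 and with Muc1 at 0.921, whereas Ltf and Xdh were at -0.166. These points share 3 groups and an array that stands apart, so r describes the pattern and has no test. Among all genes with at least 3 probe sets, those most like Glycam1 were Fam13a, Rnf39 and Nr1d1 (r = 0.998, 0.998 and 0.997, n = 9 arrays). Those most like Ltf were Elovl7, Chi3l1 and Epha2 (0.998, 0.997 and 0.997), and those most like Btn1a1 were Gm10573, the casein gene Csn3 and Sntb1 (0.998, 0.998 and 0.996). Xdh was nearest to Pdcd4, Pfkfb3 and Ramp2 (0.996, 0.995 and 0.992), Muc1 to Rab25, Rtn1 and Bspry (0.992, 0.989 and 0.987), and Plin2 to D330050I23Rik, Hmgb3 and Vamp8 (0.99, 0.985 and 0.981). Wap was nearest to Gm10419, Ms4a8a and St6galnac1 (0.991, 0.989 and 0.984), Lalba to Fam108b, Mcoln2 and Dcdc5 (0.977, 0.974 and 0.969) and Mfge8, whose values hardly varied, to Gnb2, Adck4 and Trim41 (0.915, 0.909 and 0.904).

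The other genes of milk and of milk secretion were set beside them. Each list count is to be read beside the share of all genes called. That share was 16.3% in ME (7.5% higher, 8.78% lower) and 13.3% in D-ME-iPSCs (6.83% higher, 6.45% lower). Without ME replicate 1 it was 39.1% and 28.3%. Of 5 caseins, the micelle proteins of milk, 4 were higher than in D-TF-iPSCs in ME, with 2 in D-ME-iPSCs, and Csn1s1 differed most, by log2 7.24 and 6.10; Csn1s2a differed by log2 5.77 in ME and Csn3 by log2 1.86 in D-ME-iPSCs. The median casein difference was log2 5.01 and 1.86, and without ME replicate 1 the counts were 5 and 4, the ME median log2 6.28 and the Csn1s2a difference log2 7.49. Caseins were also highest in ME replicates 2 and 3: Csn2 read 8.52, 12.17 and 12.48 in ME and 8.60 to 8.77 in D-ME-iPSCs. Of 22 other secreted milk proteins, 7 were higher and 2 lower in ME, and 8 higher and 2 lower in D-ME-iPSCs, with medians of log2 1.19 and 0.39; leaving out ME replicate 1 gave 15 and 3 in ME, 9 and 4 in D-ME-iPSCs. The largest differences up were in ME those of the iron-trapping protein Lcn2 (log2 3.24) and of complement C3 (log2 3.21), and in D-ME-iPSCs those of Chi3l1 (log2 3.96) and Lcn2 (log2 3.23). Lyz2, the lysozyme of macrophages, was lower, with log2 differences of -3.37 and -3.08, and so were Spp1 in ME (-1.27) and Lyz1 in D-ME-iPSCs (-1.04). Of 20 genes of the prolactin and STAT5 pathway, 9 were higher in ME and 5 in D-ME-iPSCs, and 0 were lower, with medians of log2 0.58 and 0.17. The counts without ME replicate 1 were 15 and 6 higher, and 1 lower in each. The alveolar transcription factor Elf5 was higher by log2 4.07 and 2.46, and the epithelial factor Ehf by log2 3.98 and 2.91; without ME replicate 1 the ME differences were log2 4.94 and 4.41.

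Lists for lactose synthesis and for partners of the fat globule had medians near 0, at log2 -0.04 and 0.04 in ME and -0.16 and -0.0088 in D-ME-iPSCs. Of 7 lactose synthesis genes, 1 was higher (the glucose transporter Slc2a1, log2 0.93) and 2 were lower in ME, and 1 was lower in D-ME-iPSCs. The log2 difference in ME was -0.48 for Slc35a2 and -0.44 for Pgm2. Of 18 lipid droplet and globule membrane partners, 2 were higher, the membrane mucins Muc15 and Muc4, and 1 was lower, Anxa5, in both ME and D-ME-iPSCs. The partner counts were near the share of all genes called, 16.3% in ME and 13.3% in D-ME-iPSCs. Muc15 differed by log2 5.43 and 2.92 and Muc4 by log2 2.81 and 1.74, and Anxa5 by log2 -0.64 and -0.47. In ME without ME replicate 1, Muc15 differed by log2 6.61 and Muc4 by log2 3.38. When ME replicate 1 was left out, the lactose list had 1 gene up and 3 down in ME, with 1 each way in D-ME-iPSCs. The partners then had 7 up and 3 down in ME, with 2 each way in D-ME-iPSCs, where 39.1% and 28.3% of all genes were called.

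**Figure D4:**
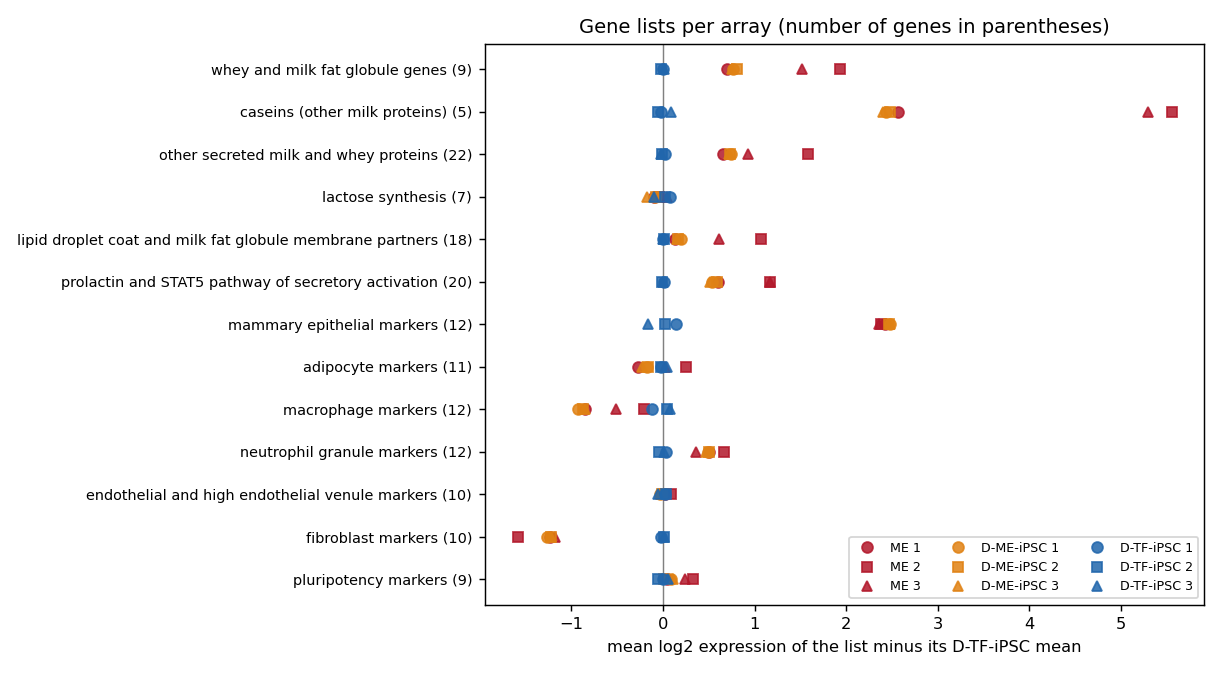
Mean log2 expression of each gene list minus its mean over the D-TF-iPSC arrays (x axis), 1 point an array; colours are the groups and shapes the replicates, as in the legend. Caseins lie 5.55 and 5.29 above D-TF-iPSCs in ME replicates 2 and 3 and 2.40 to 2.56 above them in ME replicate 1 and D-ME-iPSCs, while the mammary epithelial markers lie 2.36 to 2.47 above them in all 6 arrays.

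Other cells also make some of these proteins, so their markers were read as well. Beside each marker count below, 16.3% of all genes were called in ME and 13.3% in D-ME-iPSCs. Without ME replicate 1 these shares were 39.1% and 28.3%, near those of several marker lists. Lactoferrin fills neutrophil granules, and of the 12 neutrophil granule genes Ltf and Lcn2 were the 2 higher in ME and D-ME-iPSCs, with Mmp8 lower in ME. The defining granule genes Camp, Ngp, Mpo and Elane did not pass the test with all arrays: Camp read 6.04 to 6.76 in ME, 6.26 to 6.38 in D-ME-iPSCs and 6.11 to 6.44 in D-TF-iPSCs, and Ngp read 5.23 to 5.51, 5.09 to 5.13 and 5.03 to 5.24. S100a8, also on the list, was not called with all arrays either, but its ME and D-ME-iPSC arrays lay above the D-TF-iPSC arrays. It read 5.364 to 6.341 in ME, 5.512 to 5.754 in D-ME-iPSCs and 5.291 to 5.346 in D-TF-iPSCs. Of all genes, 14.4% lay above D-TF-iPSCs in this way in ME and 25.2% in D-ME-iPSCs. Without Ltf, the mean level of the list ranged from 6.40 to 6.68 in ME, 6.38 to 6.41 in D-ME-iPSCs and 6.14 to 6.21 in D-TF-iPSCs. Lcn2, which is also on the list of secreted milk proteins, stayed in this mean and weighs on its difference. It read 12.18 to 12.70 in ME, 12.43 to 12.47 in D-ME-iPSCs and 9.035 to 9.33 in D-TF-iPSCs. Of 12 macrophage markers, 5 were lower in ME and 6 in D-ME-iPSCs and 0 were higher, led by Mrc1 (log2 -1.58 and -2.72) and Emr1 (log2 -1.22 and -1.52). Their mean level was 6.53 to 7.17 in ME, 6.45 to 6.53 in D-ME-iPSCs and 7.26 to 7.46 in D-TF-iPSCs. Within ME it was highest in replicates 2 and 3, in which the macrophage gene Cd68 read 11.04 and 10.03 against 7.84 in replicate 1; their part in the milk gene values was not tested. When ME replicate 1 was left out, 2 macrophage markers passed the test upward and 7 downward in ME, with 9 downward in D-ME-iPSCs. The neutrophil list then had 4 up, Ngp among them (log2 0.30), and 1 down in ME, with 2 up and 1 down in D-ME-iPSCs.

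Of 11 adipocyte markers (Plin2 is expressed in adipocytes as well), 0 were called in ME or D-ME-iPSCs, and Adipoq read 4.61 to 5.36 in all 9 arrays. Leaving out ME replicate 1 gave 3 up and 1 down in ME and 2 down in D-ME-iPSCs, and 5 up in ME against D-ME-iPSCs. The shares of all genes then called were 39.1%, 28.3% and 38.7% (15.1% higher in the last). Within ME the mean level of the list was 6.50, 7.02 and 6.79 in replicates 1 to 3, and the fatty acid carrier Fabp4 read 8.03, 9.48 and 9.38, against 9.17 to 9.31 in D-TF-iPSCs; their part in the milk gene values was not tested. Of 10 fibroblast markers, 8 were lower in ME and 6 in D-ME-iPSCs, among them Pdgfrb and Fap in ME (log2 -2.86 and -2.47) and Fap and Col1a2 in D-ME-iPSCs (log2 -2.69 and -1.94), while Lum was higher in ME by log2 1.87; leaving out ME replicate 1 gave Pdgfrb log2 -3.55 in ME, and 8 lower in each, 2 higher in ME and 1 higher in D-ME-iPSCs. Of 10 endothelial genes, Glycam1 was the 1 higher in ME, and Cdh5 and Pecam1 were lower, at log2 -1.21 and -1.18; 0 were called in D-ME-iPSCs. The endothelial list had 1 up and 4 down in ME without ME replicate 1, with 1 up and 2 down in D-ME-iPSCs. Of the mammary epithelial markers, Elf5 led in ME at log2 4.07, followed by Krt19 at log2 3.33. In D-ME-iPSCs, Krt5 led at log2 3.63, followed by Krt19 at log2 3.42. Of 9 pluripotency markers, Klf4, which was also one of the reprogramming factors, passed the test at log2 1.17 in ME, with 0.80 in D-ME-iPSCs, and 0 were lower; without ME replicate 1, 3 passed it in ME and 1 in D-ME-iPSCs.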

How the data were processed

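RNA of 9 samples in 3 groups of 3 was measured on an Affymetrix mouse gene array, read per exon-level probe set. The authors deposited log2 values, made with RMA and Partek; the labels and methods state no version, setting or genome build. Probe sets with exactly 1 symbol in the platform annotation were kept (212138 of 241576; 4672 had several and 24766 none), and a gene is the mean of its probe sets. limma 3.58.1 (R 4.3.3 with data.table, version 1.17.8) fitted 1 mean per group to all 9 arrays, and a gene was called where its p, adjusted by Benjamini-Hochberg, was under 0.05; the script was tested on simulated data. Single probe sets were tested likewise. Figures were drawn with Python 3.11.15, pandas 2.3.3 and matplotlib 3.10.9.

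The members and lists were chosen with earlier results of these data known. Named were the 9 members, per member the probe sets with the largest and smallest difference, the 3 most correlated genes with 3 or more probe sets, and per list the 2 called genes with the largest difference each way; others were chosen after their values were seen. Adig and Prlr are not analysed here. Alternatives were other normalizations, probe set summaries, tests and weights, each array left out, and the replicate number as a block. The number of arrays limits the precision.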

Additional observations from a re-analysis of the deposited data

Results flagged for a closer look

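Mfge8 lay on opposite sides of the D-TF-iPSC mean in the other groups: each ME array was below it (at -0.189, -0.245 and -0.001 log2 units) and each D-ME-iPSC array above it. The ME mean was below the D-ME-iPSC mean, with a difference of -0.198 on the log2 scale. That opposition was not tested. Against D-TF-iPSC, neither group passed the test.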

How the results depend on the processing

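The sign of a gene's difference turned in 9 of the cases run, and the counts of calls moved with the probe set summary, the test and the arrays used. Of the 9 genes, those differing between ME and D-TF-iPSCs were 5, but 3 with the median of the probe sets, 2 with the brightest probe set and 1 with the methods' t-test adjusted; between D-ME-iPSCs and D-TF-iPSCs they were 4, but 2 with the brightest probe set; between ME and D-ME-iPSCs they were 0, but 7 with array weights, which gave ME replicate 3 a weight of 8.98 and ME replicates 1 and 2 weights of 0.0658 and 0.142. The cause was not tested. Leaving out 1 array at a time gave 4 to 7, 3 to 6 and 0 to 6 genes in these 3 comparisons, and 21 to 70, 20 to 45 and 0 to 56 of the 111 probe sets, with the highest counts without ME replicate 1.

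Over all genes, ME and D-TF-iPSCs differed in 3326, but in 2207 with the brightest probe set, 1752 with only the 6 arrays compared, 623 with the methods' t-test adjusted and 12267 with array weights, and in 1824 to 7992 when 1 array was left out. D-ME-iPSCs and D-TF-iPSCs differed in 2712, but in 1614 with the brightest probe set, 7816 with only the 6 arrays compared, 8341 with the methods' t-test unadjusted, 6183 with it adjusted and 8257 with array weights, and in 1547 to 5782 when 1 array was left out. ME and D-ME-iPSCs differed in 0, but in 1074 with the methods' t-test unadjusted and 12059 with array weights, and in 0 to 7899 when 1 array was left out.

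Muc1 in ME against D-ME-iPSCs (-0.04) turned to 0.0344 with quantile normalization, 0.029 with median centring, 0.0838 with the median of the probe sets and 0.000191 without ME replicate 1, and leaving out single arrays gave -0.0734 to 0.000191. With the brightest probe set, Muc1 against D-TF-iPSCs became -0.314 in ME and -0.147 in D-ME-iPSCs, and Mfge8 became -0.246 in D-ME-iPSCs against D-TF-iPSCs and 0.0297 in ME against D-ME-iPSCs. Wap in ME against D-TF-iPSCs turned to -0.0334 without ME replicate 2 and reached 1.38 without ME replicate 1. The replicate numbers did not pair the samples (correlations of deviations from -0.179 to 0.157). With the replicate number as a block, 5, 4 and 0 of the 9 genes and 2805, 2255 and 0 of all genes were called, against 3326, 2712 and 0 without it. The background was not corrected anew, as RMA had done so.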
